A study of Mus musculus with 24 samples.

Results

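Compound E is a gamma-secretase inhibitor (GSI), and the 12 arrays described here, of 24 in the series, measured its effect on gene expression in T6E cells that carried a Notch1 which no longer needs gamma-secretase. T6E cells are a mouse line of T-cell acute lymphoblastic leukaemia (T-ALL), and they need Notch1 to grow. The arrays were chosen by their titles: 3 ICN1-GSI and 3 R1984A-GSI arrays made up the inhibitor side, and 3 ICN1-DMSO and 3 R1984A-DMSO arrays made up the vehicle side. ICN1 is intracellular Notch1, and R1984A is an intracellular Notch1 that is defective in dimerization. Cells of the GSI groups received 1 uM compound E and cells of the DMSO groups received DMSO, in both cases for 6 hours. The other arrays came from T6E cells with the empty vector MigR1 and from T6E cells with a dominant negative MAML (DNMAML). Each had 3 GSI and 3 DMSO arrays. They are used here to set the size of a response and to test the difference from it. They also enter the estimate of spread per gene that all 8 groups share. All groups are 1 cell line, and all of them keep the line's own Notch1 gene beside the construct. The labels do not say whether the 3 samples of each group were grown as separate cultures, so the p-values speak for the spread among these samples alone, and that spread may be technical.

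In a cell with full-length Notch1, gamma-secretase makes the last cut that frees the intracellular part of the receptor from the membrane. The freed part enters the nucleus, binds the DNA-binding protein Rbpj and recruits a Mastermind-like coactivator (MAML), and this complex switches on targets such as Hes1, Hey1, Dtx1, Nrarp and, in T-cell leukaemia, Myc. Intracellular Notch1 made directly from a vector skips the cut, so an inhibitor of the protease is expected in the field to leave its targets on, while it can still act on the many other membrane proteins that gamma-secretase cuts. The comparison of GSI with DMSO in ICN1 and R1984A cells therefore asks for effects of the inhibitor other than on Notch1 cleavage, and for the size of effect that the arrays could have missed.

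No gene was called. Of 19938 genes, 0 (0%) had a Benjamini-Hochberg adjusted p under 0.05 for GSI against DMSO in limma, with the ICN1 and R1984A differences averaged into 1 pooled difference per gene, and all adjusted p-values were 1. At an unadjusted p under 0.05 there were 591 genes (2.96%), of which 336 (1.69%) were higher and 255 (1.28%) lower in the GSI cells, where an even spread of p-values would give 996.9. That count depended on the fit. It was 1480 with the replicate number as a block and 2316 with array weights, both above 996.9. In both of these fits 0 genes were called, with a lowest limma adjusted p of 0.17. Log2 differences lay between -0.55 and 0.77. Only 10 genes differed by more than 0.5 (1.41-fold) in either direction, and 0 by more than 1 (2-fold). With the arrays numbered 1 left out in every group, 1 gene was called, Lgi1 at -0.98 (limma adjusted p = 0.014), against -0.55 with all arrays. RNA came from bulk cultures, so fewer cells of a type and less RNA per cell cannot be told apart.

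The arrays set narrow limits for most genes. A pooled difference had a median standard error (SE) of 0.10, and its 95% interval reached a median of 0.21 to either side on the log2 scale. For 18956 genes (95.1%) the whole interval lay within 0.5 of 0, and for 19927 (99.9%) it lay within 1. No filter on level was applied, and the share within 0.5 varied with level. In 4 equal classes by mean value it was 98.8% in the lowest (1.96 to 3.10) and 96.7% in the second (3.10 to 4.16). It was 92.05% in the third and 92.8% in the highest class. Within 1 construct, the share of genes with an interval inside 0.5 was 77.4% in ICN1 cells and 73.7% in R1984A cells. A change smaller than these widths could be missed with this number of arrays. The intervals are not adjusted for the number of genes, so larger changes could go uncalled as well. Pck1 at 0.41 (interval 0.22 to 0.60) and Bmf at 0.52 (interval 0.19 to 0.86), for example, were not called.

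**Figure D1:**
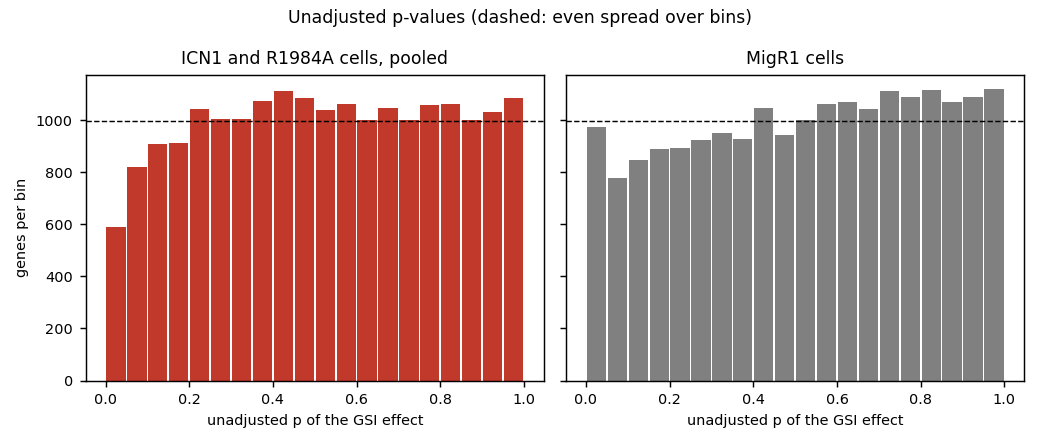
Number of genes (vertical axis) by limma's unadjusted p for GSI against DMSO (horizontal axis, 20 bins of width 0.05), in ICN1 and R1984A cells pooled (left) and in MigR1 cells (right); the dashed line is the 996.9 genes per bin of an even spread. The lowest bin holds 591 genes in the pooled comparison and 972 in MigR1 cells, in the fit without a block or array weights.

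In MigR1 cells, whose Notch1 still has to be cut, the same treatment changed a group of genes led by Notch targets. There, 33 genes (0.166% of 19938) were called, 6 higher (0.0301%) and 27 lower (0.135%) in MigR1-GSI than in MigR1-DMSO cells, and 82 were called with the replicate number as a block. Without any 1 of the 6 MigR1 arrays the count was 15 to 21, and it was 21 without DNMAML-GSI replicate 1. The MigR1 arrays chose these 33 genes, so their MigR1 values are a description. The MigR1 and the pooled differences share no array. In ICN1 and R1984A cells 0 of the 33 were called, and 1 (Deptor) had an unadjusted p under 0.05. Their pooled differences ran from -0.25 to 0.22. The 27 genes lowered in MigR1 cells had a median difference of -0.06 in the pooled comparison, -0.07 in ICN1 cells and -0.08 in R1984A cells, beside -0.93 in MigR1 cells. The 6 genes raised in MigR1 cells had a median of 0.06 in the pooled comparison, beside 0.69 in MigR1 cells.

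All 33 pooled intervals lay within 0.5 of 0, and none of them reached the MigR1 difference of its gene. For 32 of the 33 the interval also stayed short of 50% of the MigR1 difference. The exception was Rnf125, which encodes a ubiquitin ligase, at 0.14 (95% interval -0.05 to 0.33) in the pooled comparison beside 0.66 in MigR1 cells. These counts take each MigR1 difference as a fixed value, without its own interval. The MigR1 differences also chose the genes, so they may be too large. A test of the difference that includes the spread of both sides called 7 of the 33. In MigR1 cells 972 genes (4.88%) had an unadjusted p under 0.05. The pooled difference had the sign of the MigR1 difference for 28 of the 33 genes, against 52.7% of all genes. Within the constructs the counts were 22 of 33 in ICN1 cells and 23 of 33 in R1984A cells, against 51.6% and 52.6% of all genes. These shares of all genes are not weighted to the direction or level of the 33 genes. The pooled sign varied with level, and 71.8% of the highest of 4 equal classes by mean value were negative. By direction, the pooled sign matched for 22 of the 27 lowered genes and for all 6 raised genes.

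**Figure D2:**
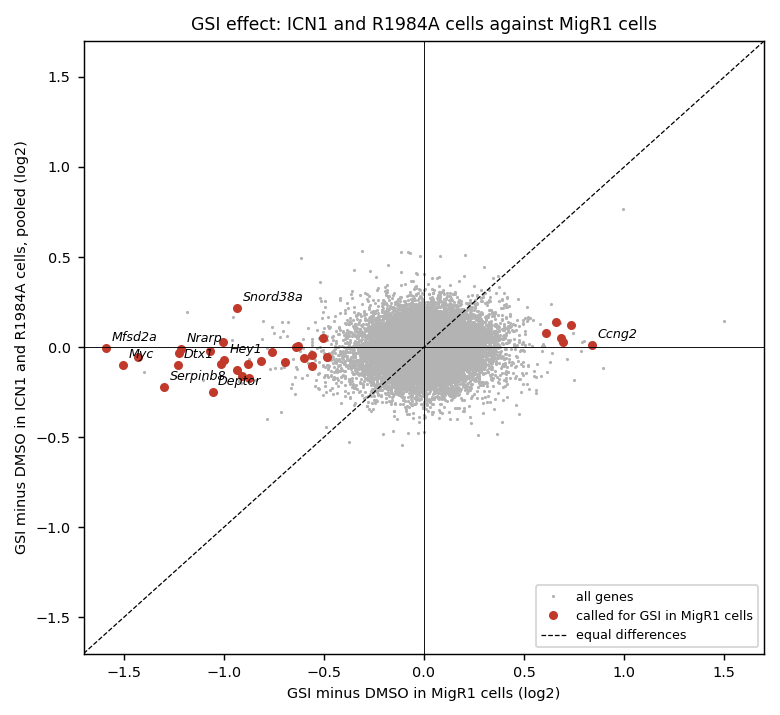
Log2 difference of GSI against DMSO in ICN1 and R1984A cells pooled (vertical axis) and in MigR1 cells (horizontal axis), 1 point per gene, with the 33 genes called in MigR1 cells in red and a dashed line where both differences are equal. The red points span -1.59 to 0.84 across and only -0.25 to 0.22 upwards.

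Whether the response differed from that of MigR1 cells was tested across all genes as pooled difference minus MigR1 difference. It was called for 7 genes (0.0351%), all higher on this scale, and each of the 7 is among the 27 lowered in MigR1 cells. With the replicate number as a block it was called for 23 genes, the same 7 included, of which 19 were higher and 4 lower, and 15 of the 23 were among the 33 called in MigR1 cells without the block. The 7 genes called without the block are Nrarp, Mfsd2a, Hey1, Agfg1, Capn5 and Myc, together with Snord38a. This small nucleolar RNA is outside the rule for named genes and was named after its values were seen. An unadjusted p under 0.05 was found for 713 genes (3.58%). The number called was 4 when either replicate 2 or replicate 3 of MigR1-DMSO was left out, and 1, 0 and 3 with all arrays numbered 1, 2 or 3 left out. These 7 tests use the MigR1 arrays that chose the 33 genes, but they were adjusted over all 19938 genes.

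Among the feedback regulators of the pathway, Nrarp, an ankyrin-repeat protein that restrains the Notch complex, had the smallest adjusted p. Its log2 values were 6.33, 6.35 and 6.43 in ICN1-GSI cells, against 6.21, 6.53 and 6.32 in ICN1-DMSO cells. In R1984A-GSI cells they were 5.98, 6.18 and 6.2, against 6.04, 6.18 and 6.24 in R1984A-DMSO cells. The GSI and DMSO arrays of both constructs overlapped throughout. In MigR1-GSI cells Nrarp read 4, 4.10 and 4.17, against 5.12, 5.41 and 5.38 in MigR1-DMSO cells, with no overlap. The pooled difference was -0.01 (SE 0.07, interval -0.17 to 0.15), the MigR1 difference was -1.21, and they differed by 1.21 (SE 0.13, limma adjusted p = 7.7e-05).

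Hey1, a basic helix-loop-helix repressor and a direct Notch target in many tissues, read 9.87, 10.01 and 9.89 in ICN1-GSI cells, against 9.94, 9.98 and 9.91 in ICN1-DMSO cells. It read 9.94, 9.84 and 9.94 in R1984A-GSI cells, against 10.06, 10.01 and 10.02 in R1984A-DMSO cells, so that every R1984A-GSI array lay below every R1984A-DMSO array, as for 3.08% of all genes. In MigR1-GSI cells the values were 8.88, 8.90 and 8.59, against 9.89, 9.79 and 9.69 in MigR1-DMSO cells. The pooled difference of -0.07 (SE 0.07, interval -0.23 to 0.09) and the MigR1 difference of -1 differed by 0.93 (limma adjusted p = 0.0022).

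Hes1, a repressor related to Hey1 and a classical Notch target in thymocytes, differed in how its arrays lay in the 2 constructs. It read 5.77, 5.11 and 5.42 in ICN1-GSI cells, against 5.41, 5.46 and 5.46 in ICN1-DMSO cells, and the ICN1-GSI arrays lay on both sides of the ICN1-DMSO arrays. In R1984A-GSI cells it read 4.65, 4.61 and 4.90, against 5.16, 5.09 and 4.96 in R1984A-DMSO cells, with every GSI array below every DMSO array. The difference was -0.01 in ICN1 cells and -0.35 in R1984A cells (limma's unadjusted p = 0.021, adjusted p = 1). The gap between the constructs was not called either (0.34, unadjusted p = 0.099, adjusted p = 1).

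Dtx1, which encodes the ubiquitin ligase Deltex1, read 6.74, 7 and 7.11 in ICN1-GSI cells, against 6.89, 6.95 and 6.90 in ICN1-DMSO cells. It read 6.89, 6.65 and 6.65 in R1984A-GSI cells, against 7.09, 6.95 and 6.86 in R1984A-DMSO cells. Both constructs kept overlapping groups, while MigR1-GSI cells read 5.42, 5.07 and 5.21, against 6.57, 6.40 and 6.41 in MigR1-DMSO cells. The pooled difference was -0.10 (interval -0.40 to 0.20) and the MigR1 difference -1.23, and the gap of 1.13 between them was not called (adjusted p = 0.23).

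Myc, the transcription factor through which Notch1 drives growth of these leukaemias, differed little in either construct. Its values were 9.52, 9.41 and 9.65 in ICN1-GSI cells, against 9.48, 9.53 and 9.53 in ICN1-DMSO cells. They were 8.51, 8.50 and 8.14 in R1984A-GSI cells, against 8.68, 8.65 and 8.44 in R1984A-DMSO cells, and the groups overlapped in both constructs. In MigR1-GSI cells they were 8.08, 8.18 and 7.07, against 9.32, 9.27 and 9.24 in MigR1-DMSO cells, with the third MigR1-GSI array far below the other two. The pooled difference of -0.10 (SE 0.15, interval -0.41 to 0.21) exceeded the MigR1 difference of -1.5 by 1.41 (limma adjusted p = 0.046). This call lay close to the threshold and was lost in 23 of 34 alternative settings, with values from 1.05 to 1.63.

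Among genes of metabolism and trafficking, Mfsd2a, a membrane transporter of lysophospholipids, read 6.73, 6.38 and 6.29 in ICN1-GSI cells, against 6.43, 6.23 and 6.26 in ICN1-DMSO cells. In R1984A-GSI cells it read 7.32, 7.28 and 7.44, against 7.43, 7.33 and 7.80 in R1984A-DMSO cells. The groups overlapped in both constructs. Its ICN1 difference of 0.16 and its R1984A difference of -0.17 had opposite signs, and both intervals held 0. The pooled difference of -0.01 (interval -0.25 to 0.24) stood beside -1.59 in MigR1 cells, a gap of 1.58 (adjusted p = 8.4e-04). Capn5, a calcium-dependent protease, had a pooled difference of -0.03 beside -1.22 in MigR1 cells (gap 1.19, adjusted p = 0.016). Agfg1, which encodes a protein with an ArfGAP domain and phenylalanine-glycine repeats, had -0.08 beside -0.82 (gap 0.74, adjusted p = 0.0070). For Snord38a the gap was 1.15 (adjusted p = 0.012), and its pooled difference of 0.22 (interval -0.01 to 0.44) had the opposite sign to the -0.93 of MigR1 cells.

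**Figure D3:**
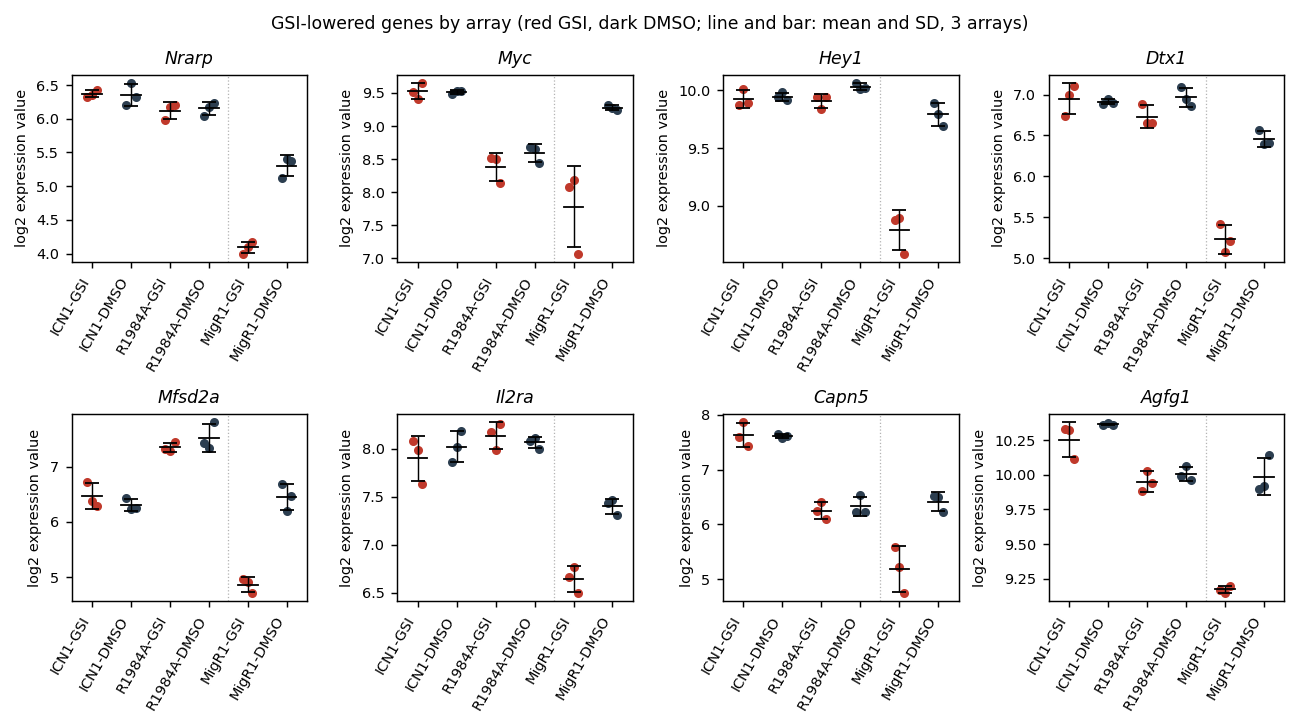
Log2 expression value of 8 genes lowered by GSI in MigR1 cells (vertical axis) on every array of 6 groups (horizontal axis), with GSI arrays in red and DMSO arrays in dark blue; lines and bars are the mean and SD of 3 arrays. GSI and DMSO arrays lie at like levels in ICN1 and R1984A cells and apart in MigR1 cells, as for Nrarp at 4 to 4.17 in MigR1-GSI and 5.12 to 5.41 in MigR1-DMSO cells.

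The remaining genes lowered in MigR1 cells had small negative or near-zero pooled differences. Il2ra, the alpha chain of the interleukin 2 receptor, had -0.03 (interval -0.24 to 0.18) beside -0.76 in MigR1 cells. Trib2, a pseudokinase with a role in leukaemia, had 0.01 beside -0.63, and Runx1, a transcription factor of blood development, had -0.08 beside -0.69. Deptor and Serpinb8 lay farthest from 0. Deptor, an inhibitory partner of mTOR, read 5.94, 6.31 and 5.63 in ICN1-GSI cells, against 6.26, 6.44 and 6.01 in ICN1-DMSO cells, where the groups overlapped. It read 4.65, 4.55 and 4.64 in R1984A-GSI cells, against 4.67, 4.93 and 4.92 in R1984A-DMSO cells, where the groups did not overlap. Its pooled difference was -0.25 (interval -0.48 to -0.02, limma's unadjusted p = 0.032, adjusted p = 1) beside -1.06 in MigR1 cells. Serpinb8, a serine protease inhibitor, had -0.22 (interval -0.48 to 0.03) beside -1.30. Among the genes raised in MigR1 cells, Ccng2, a cyclin that rises as cells leave the cycle, had a pooled difference of 0.01 beside 0.84, and Atp6v0a1, a subunit of the proton pump of lysosomes, had 0.03 beside 0.69.

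A list of 30 Notch targets had 29 measured members, and Tcf7 was not analysed here. In the pooled comparison 0 rose and 0 fell by the adjusted test, while 9 of the 29 had fallen in MigR1 cells, where 0.135% of all genes fell. Of these 9, Mfsd2a and Serpinb8 entered the list with earlier results of these data known, so the MigR1 count is no independent evidence of its direction. For 28 of the 29 the pooled interval lay within 0.5 of 0, and the exception was Fjx1, the mouse relative of the fly gene four-jointed, at -0.23 (interval -0.54 to 0.09). The median over the list was -0.07 in the pooled comparison, -0.02 in ICN1 cells and -0.12 in R1984A cells, and it was -0.15 in MigR1 cells. Of the 29 pooled differences, 22 were negative. This share of 75.9% reads against the level of the genes, since the sign of the pooled difference varied with level. When all genes were split by mean value into 4 classes of equal size, 71.8% of the highest class (6.21 to 11.9), 56.7% of the third (4.16 to 6.21), 39.0% of the second and 38.2% of the lowest had a negative pooled difference. The list had 12 members in the highest class, 13 in the third, 1 in the second and 3 in the lowest, and all genes weighted to these classes gave 60.4% negative. The median pooled difference was 0.024 in the lowest, 0.027 in the second, -0.017 in the third and -0.048 in the highest class. The array medians were slightly higher with GSI, at a mean of 4.01 in ICN1-GSI and 4.06 in R1984A-GSI cells, against 3.98 in ICN1-DMSO and 3.99 in R1984A-DMSO cells. A cause of this dependence on level was not tested. With each array centred on its median, the median over the list was -0.12.

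**Figure D4:**
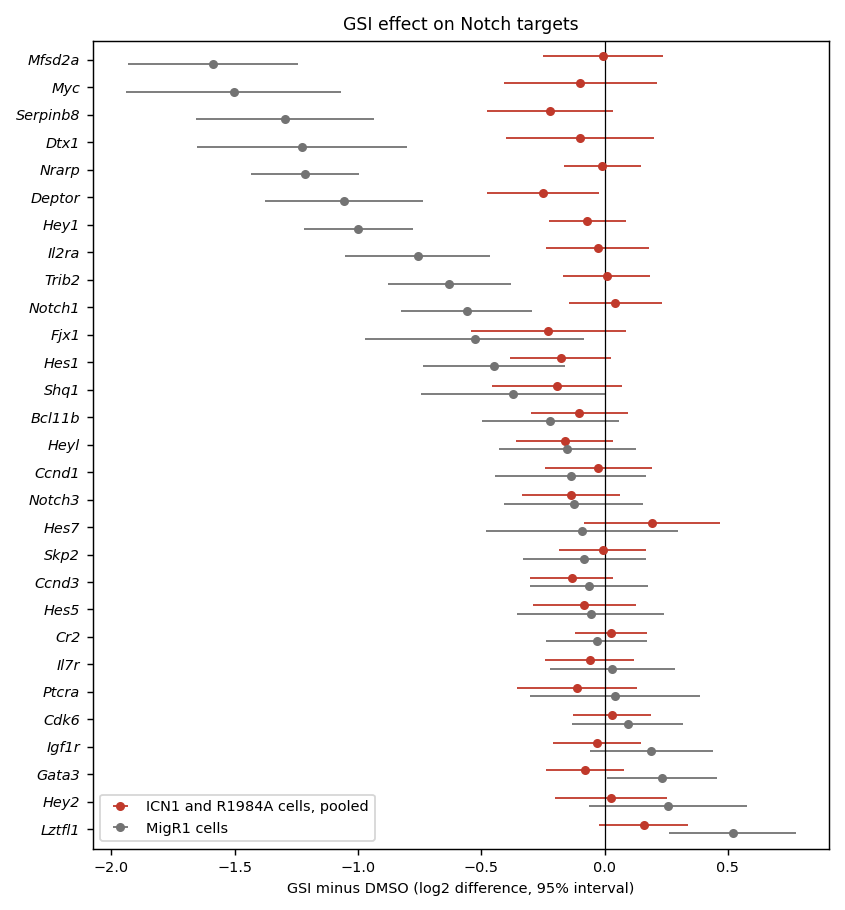
Log2 difference of GSI against DMSO with its 95% interval (horizontal axis) for 29 Notch targets (rows), in ICN1 and R1984A cells pooled (red) and in MigR1 cells (grey), ordered by the MigR1 difference. The red intervals of 28 genes stay within 0.5 of 0, while the grey values reach -1.59 (Mfsd2a).

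Notch1 itself, the labelled construct, read 7.39, 7.26 and 7.30 in ICN1-GSI cells, against 7.28, 7.12 and 7.46 in ICN1-DMSO cells. It read 7.05, 7.16 and 7 in R1984A-GSI cells, against 6.93, 7.08 and 7.04 in R1984A-DMSO cells. All of these lay above the 5.62 to 5.73 of MigR1-GSI and the 6.17 to 6.28 of MigR1-DMSO cells, but construct and endogenous Notch1 RNA cannot be told apart on this array. The pooled difference was 0.04 (interval -0.14 to 0.23). Rbpj and Maml1, the DNA-binding partner and the coactivator, had -0.12 (interval -0.40 to 0.16) and -0.06 (interval -0.24 to 0.13).

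The enzyme that the drug binds is a complex of presenilin, nicastrin, an Aph1 protein and Psenen, and 6 of its subunit genes were analysed. None of the 6 was called. Pooled differences were 0.12 for Psen2, the catalytic presenilin 2, -0.16 for Ncstn, 0.01 for Aph1a, -0.11 for Aph1c and 0.04 for Psenen. Aph1b had the lowest value of the 6. It read 4.67, 4.20 and 4.27 in ICN1-GSI cells, against 4.76, 4.43 and 4.73 in ICN1-DMSO cells, which overlapped. It read 4.44, 4.31 and 4.36 in R1984A-GSI cells, against 4.47, 4.98 and 4.88 in R1984A-DMSO cells, which did not. The difference was -0.33 (interval -0.60 to -0.06, limma's unadjusted p = 0.018, adjusted p = 1). Of 34 genes for other membrane proteins cut by gamma-secretase, 33 were measured, 0 were called, and all 33 intervals lay within 0.5, with a median of 0.01. But 20 of the 33 had a mean value below the highest array median of 4.18, so many of these narrow intervals belong to genes of low signal. The array reports RNA, so cleavage of these proteins was not measured.

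Beyond Notch, the 10 genes of each direction with the smallest unadjusted p, clone names and small RNAs left aside, are named although none was called. On the higher side they were Pck1, Vmn1r174, Ccr3, Selenok-ps1, Gtf2a1l, Krt34, Lrrn3, Ica1, Marchf9 and Bmf. Pck1, the enzyme that commits carbon to glucose synthesis, had the smallest p of all. It read 4.28, 4.15 and 4.19 in ICN1-GSI cells, against 3.59, 4 and 3.98 in ICN1-DMSO cells. It read 4.03, 4.10 and 4.24 in R1984A-GSI cells, against 3.59, 3.44 and 3.92 in R1984A-DMSO cells. Every GSI array lay above every DMSO array within both constructs, which held for 41 genes (0.206% of all), while every GSI array lay below every DMSO array within both for 24 (0.12%). The Pck1 difference was 0.41 (SE 0.09, interval 0.22 to 0.60, limma's unadjusted p = 0.00023, adjusted p = 1), beside -0.04 in MigR1 and 0.19 in DNMAML cells.

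Bmf, a BH3-only protein that promotes apoptosis, lay in the p53 and apoptosis list. It read 4.73, 4.43 and 4.94 in ICN1-GSI cells, against 4.35, 3.92 and 4.30 in ICN1-DMSO cells, with every GSI array above every DMSO array, as for 3.71% of all genes in ICN1 cells. It read 4.34, 4.73 and 4.59 in R1984A-GSI cells, against 3.76, 3.72 and 4.58 in R1984A-DMSO cells, with overlap through the third DMSO array. The pooled difference was 0.52 (interval 0.19 to 0.86, limma's unadjusted p = 0.0038, adjusted p = 1), beside -0.07 in MigR1 cells. Vmn1r174, a vomeronasal receptor gene, had 0.53 at log2 values of 2.07 to 3.22 over the 12 arrays. Ccr3, a chemokine receptor, had 0.31 at 2.68 to 3.35. Selenok-ps1, a pseudogene, had 0.53 (interval 0.23 to 0.83), and its probes may also bind RNA of its parent gene.

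The largest pooled difference of all genes belonged to Rnu3a, a U3 small nucleolar RNA of ribosomal RNA processing, which is outside the rule for named genes and was named after its values were seen. It read 6.09, 5.65 and 6.42 in ICN1-GSI cells, against 4.95, 5.08 and 4.16 in ICN1-DMSO cells, with no overlap. In R1984A-GSI cells it read 5.91, 5.44 and 5.37, against 5.80, 4.99 and 5.29 in R1984A-DMSO cells, with overlap. The pooled difference was 0.77 (interval 0.36 to 1.17, limma's unadjusted p = 0.00074, adjusted p = 1), made up of 1.32 in ICN1 cells and 0.21 in R1984A cells, beside 1.00 in MigR1 and -0.22 in DNMAML cells. The U3 gene has near-identical copies in the mouse, and the array may not tell them apart.

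On the lower side were Relb, Zfp667, Supt7l, Olfr763, Prkaa2, Atoh1, Rab35, Slc16a5, Gpn2 and Nfix, with differences between -0.47 (Rab35, a GTPase of endosomal recycling) and -0.25 (Relb). Relb, a subunit of NF-kappaB, read 3.66, 3.80 and 3.78 in ICN1-GSI cells, against 4.19, 4.26 and 4.03 in ICN1-DMSO cells, with every GSI array below every DMSO array, as for 2.85% of all genes in ICN1 cells. It read 3.73, 3.93 and 3.79 in R1984A-GSI cells, against 3.88, 3.96 and 3.90 in R1984A-DMSO cells, with overlap. The difference was -0.41 in ICN1 cells and -0.10 in R1984A cells. Prkaa2, a catalytic subunit of the energy sensor AMPK, read 3.36, 3.22 and 3.30 in ICN1-GSI cells, against 3.51, 3.51 and 3.5 in ICN1-DMSO cells. It read 3.11, 3.27 and 3.27 in R1984A-GSI cells, against 3.47, 3.57 and 3.52 in R1984A-DMSO cells. Neither construct's groups overlapped for Prkaa2, and the pooled difference was -0.26 (interval -0.41 to -0.10, limma's unadjusted p = 0.0020, adjusted p = 1), beside 0.21 in MigR1 cells. Of the 591 genes with an unadjusted p under 0.05, 328 (55.5%) had a mean value below the median gene's 4.16, where 50% of all genes lie.

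The constructs were also tested one at a time. In ICN1 cells 0 genes (0%) were called, and 472 (2.37%) had an unadjusted p under 0.05. The smallest p of all was that of Rnu3a (8.9e-05, adjusted p = 1 in limma). With small RNAs and clone names left aside, the smallest p on the higher side belonged to Cdx1, Cyp3a11 and Ccr3 (0.51, 0.39 and 0.38) and on the lower side to Relb, Poc5 and Vrtn (-0.41, -0.57 and -0.66). In R1984A cells 0 genes (0%) were called, and 635 (3.18%) had an unadjusted p under 0.05. There the smallest p belonged to Olfr63, Olfr569 and Tmtc3 (0.53, 0.56 and 0.47) and to Chst14, Atoh1 and Pomt2 (-0.53, -0.48 and -0.42). The difference between the constructs was called for 0 genes (0%), with 460 (2.31%) at an unadjusted p under 0.05 and intervals that reached a median of 0.43 to either side. The smallest p on either side belonged to Chst14, a sulfotransferase, at 0.80, and to Poc5, a centriole protein, at -0.71. Across all 19938 genes the ICN1 and R1984A differences, which share no array, correlated with r = 0.094, a description in which genes are not independent replicates. By the same description the pooled difference correlated with r = 0.164 with the DNMAML difference and with r = 0.08 with the MigR1 difference. Among the 9969 genes of higher level these values were 0.119 between the constructs, 0.264 with DNMAML and 0.09 with MigR1.

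Of 24 gene lists, 0 held a gene called in the pooled comparison. They covered 536 different measured genes, of which 10 were higher and 10 lower at an unadjusted p under 0.05, and 498 had intervals within 0.5. List medians lay between -0.10 and 0.08, beside -0.003 for all genes. The lowest belonged to Myc and ribosome biogenesis genes, with 48 of 54 pooled differences negative and a median of -0.10, beside -0.22 in MigR1 cells and -0.15 in DNMAML cells. Its members with the smallest p were Wdr3 (-0.29, unadjusted p = 0.0051) and Nolc1 (-0.21, unadjusted p = 0.032), which encode nucleolar proteins, both with an adjusted p of 1 in limma. The highest class by level held 49 of its 54 members and the third class 5, and all genes weighted to these classes gave 70.4% negative, beside 88.9% of the list.

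Medians of the stress and signalling lists were small as well, but the unfolded protein response list was mostly positive in every construct and in MigR1 cells. The unfolded protein response list had a median of 0.06 with 18 of 20 differences positive in the pooled comparison, and 0.23 in MigR1 cells. Its median was 0.11 in DNMAML cells. Of its 20 differences, 3 were negative in ICN1 cells, 4 in R1984A cells, 1 in MigR1 cells and 3 in DNMAML cells. In none of these comparisons was a member called. All genes weighted to the level classes of this list gave 67.9% negative, beside 10% of the list. Hspa5, the chaperone BiP, had 0.14 (interval 0.01 to 0.26). Its mean was 10.06 in ICN1-GSI against 9.91 in ICN1-DMSO cells, and 10.17 in R1984A-GSI against 10.05 in R1984A-DMSO cells. It was 10.12 in MigR1-GSI against 9.87 in MigR1-DMSO cells, and 10.13 in DNMAML-GSI against 9.96 in DNMAML-DMSO cells. Medians were 0.01 for cholesterol synthesis, -0.05 for amino acid stress, -0.01 for heat shock, -0.02 for xenobiotic and oxidative stress, -0.04 for lysosome and autophagy, and 0.01 for p53 and apoptosis. The interferon list had -0.07, with Irf7, a regulator of type I interferon, at -0.35 (interval -0.60 to -0.11, limma's unadjusted p = 0.0066, adjusted p = 1). Among immediate early and ERK feedback genes, Dusp6 and Spry2, which both restrain ERK signalling, had -0.29 and -0.27, beside 0.35 and 0.42 in MigR1 cells. For Spry2 the ICN1 difference was -0.02 and the R1984A difference -0.53. Neither gene passed the adjusted test in any of these comparisons. The cell cycle lists had medians of -0.04 (G1/S) and -0.06 (G2/M), beside 0.02 and 0.16 in MigR1 cells.

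**Figure D5:**
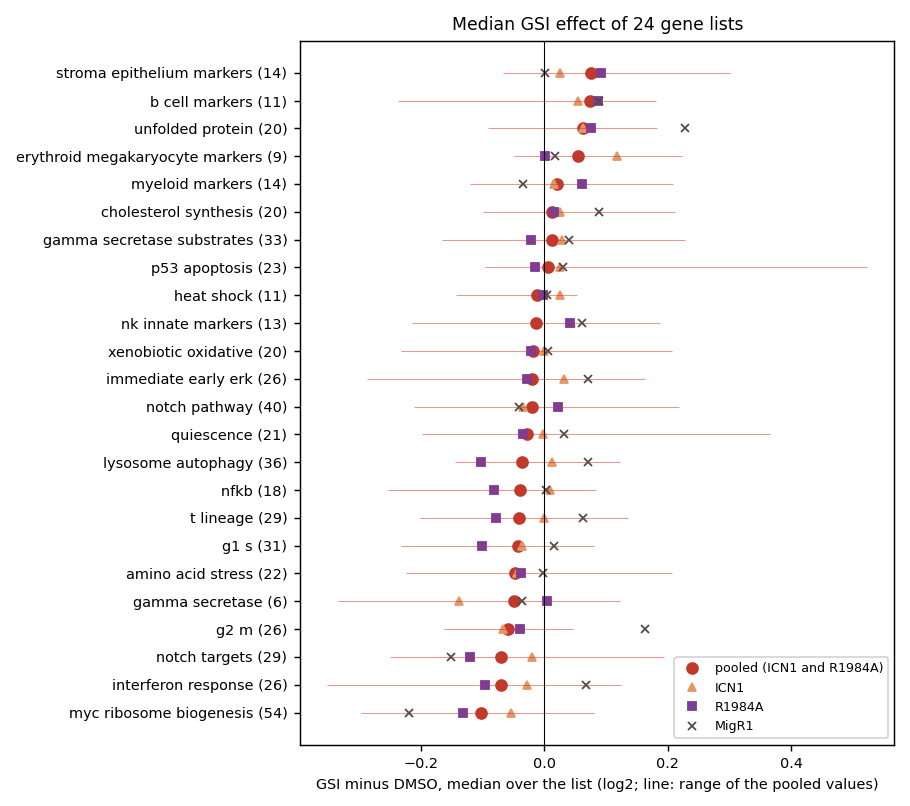
Median log2 difference of GSI against DMSO (horizontal axis) over 24 gene lists (rows, number of measured genes in brackets), for ICN1 and R1984A cells pooled, each construct alone and MigR1 cells; the thin line is the range of the pooled values. Pooled medians lie between -0.10 and 0.08, and 0 genes of any list were called in the pooled comparison.

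Of the T-cell markers, the Cd3 genes had high values in all groups, while Cd5 did not. Cd3e lay between 10.28 and 10.62 on the 12 arrays and differed by 0.01 (interval -0.12 to 0.14) with GSI, and Cd3d and Cd3g differed by 0.01 and -0.08. Lck was not analysed here. Markers of other cells mostly lay below the highest array median of 4.18, namely 8 of 11 for B cells, 13 of 14 for myeloid cells, 5 of 9 for erythroid and megakaryocyte cells, 9 of 13 for natural killer and innate cells, and 7 of 14 for stroma and epithelium. Their list medians differed by -0.01 to 0.08 between GSI and DMSO.

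DNMAML cells, in which the Notch complex is blocked after the cleavage step, gave a second setting for GSI. There 1 gene (0.00502%) was called, Hey1, at -0.72 (limma adjusted p = 0.014), beside -0.07 in ICN1 and R1984A cells. The pooled difference minus the DNMAML difference was called for 0 genes (0%), with 456 (2.29%) at an unadjusted p under 0.05. For Hey1 that difference was 0.65 (adjusted p = 0.96). With any 1 of DNMAML-DMSO replicates 1 and 2 and DNMAML-GSI replicates 2 and 3 left out, 0 genes were called in DNMAML cells.

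One promoter is shown because its gene had a large difference in MigR1 cells and carries the letters to which Rbpj binds. The core TGGGAA was searched on both strands from 250 bases before to 50 after each start. It was found for 4 of the 22 genes, among the 33, whose promoters are in the RefSeq table used (16.1% of their 31 promoters), against 25.6% of 32851 promoters. The 250 bases before the start of Serpinb8, on the plus strand at chr1:107589756-107590005 of GRCm38.p6 (RefSeq), hold 2 matches, in capitals, which begin 116 and 32 bases before the start.
Serpinb8: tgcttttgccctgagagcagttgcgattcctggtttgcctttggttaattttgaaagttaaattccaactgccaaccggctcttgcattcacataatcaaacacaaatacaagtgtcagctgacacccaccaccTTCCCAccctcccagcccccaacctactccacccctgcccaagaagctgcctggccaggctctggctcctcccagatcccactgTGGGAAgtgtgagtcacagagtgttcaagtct
The first match is on the opposite strand. Both are also matches to the longer GTGGGAA, which 6.38% of all promoters hold. A match describes letters only, and binding was not measured on these arrays.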

How the data were processed

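RNA from T6E cells was measured on Affymetrix Mouse Gene 1.0 ST arrays, 24 in all. The deposited values are log2 expression values, read as such from their range of 1.28 to 13.47, and oligo and limma are the tools that the authors name, per the submitters' processing notes. Steps and versions are not given in the sources used here. Medians of the 24 arrays lay between 3.90 and 4.18, and correlations within the groups of the 12 arrays were 0.986 to 0.994.

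Of 35556 probe sets, 21789 had 1 gene symbol in the platform annotation, 1621 had several and 12146 were unnamed in it. Each gene was represented by its probe set of highest mean over the 24 arrays, which left 19938 genes with no filter on level. RefSeq tables (GRCm38.p6) gave names for 21698 probe sets and promoters.

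Differences came from limma 3.58.1 in R 4.3.3, with 1 mean for each of 8 groups. The pooled difference is the mean of the ICN1 and R1984A differences, GSI minus DMSO. Tests were two-sided, with Benjamini-Hochberg adjustment over 19938 genes and a threshold of 0.05, and 95% intervals use the moderated SE. The steps were tested on simulated data. Precision is limited by the number of arrays.

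Members and gene lists were chosen with earlier results of these data known, and Mfsd2a and Serpinb8 entered the Notch list that way. Named were the 10 genes with the smallest p on either side of the pooled comparison where none was called, the 3 on either side for each construct, every gene called in MigR1 cells, all measured Notch targets and subunits for counts, and up to 2 of each other list. Clone names and small RNAs were left out of naming. Same-numbered GSI and DMSO arrays deviated together with correlations of 0.42, 0.16 and 0.59 in MigR1 cells, so its blocked count is given. These correlations were 0.27, 0.08 and 0.35 in ICN1 cells and 0.32, 0.005 and 0.54 in R1984A cells, with 4 of 6 over 0.1. The labels do not say whether equal numbers pair arrays. The main fit therefore has no block, and blocked counts are given beside it. Alternatives were other scalings, a level filter, array weights, the block, the 12 arrays alone and arrays left out.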

Additional observations from a re-analysis of the deposited data

Results flagged for a closer look

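The response to GSI differed between ICN1 or R1984A cells and MigR1 cells for 7 genes by the test of the difference itself. The pooled log2 difference minus the MigR1 difference was 1.58 for Mfsd2a, 1.405 for Myc, 1.205 for Nrarp, 1.192 for Capn5, 1.15 for Snord38a, 0.928 for Hey1 and 0.738 for Agfg1. In all 7 the MigR1 difference was negative and the pooled interval held 0. Over 34 alternative settings the call was lost in 23 for Myc, 8 for Capn5, 8 for Snord38a, 5 for Agfg1, 4 for Hey1, 2 for Mfsd2a and 1 for Nrarp. The value of Nrarp stayed between 1.15 and 1.3 and that of Mfsd2a between 1.46 and 1.71 in these settings.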

How the results depend on the processing

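The pooled comparison called 0 genes under all 10 settings that kept all replicates. Leaving out arrays gave 0 to 1 gene for the pooled comparison (Lgi1, without the arrays numbered 1), 0 to 1 for ICN1 cells (Lgi1 at -1.26), 0 to 9 for the difference from MigR1 cells, 2 to 30 for MigR1 cells, 0 to 2 for DNMAML cells, and 16136 to 19139 pooled intervals within 0.5. R1984A cells, the difference between the constructs, the difference from DNMAML cells and the gene lists stayed at 0 calls. With the replicate number as a block, the pooled comparison still called 0 genes (lowest adjusted p 0.17, 1480 at an unadjusted p under 0.05), ICN1 cells 1 (Cachd1 at -0.64, adjusted p = 0.030), the difference from MigR1 cells 23 (19 higher and 4 lower, including the same 7), and MigR1 cells 82. By number, 9 of the 12 arrays correlated best with their own number, a hint from the data and not the design. Centring each array on its median gave 2 genes for the difference from MigR1 cells, 16 for MigR1 cells and 0 for DNMAML cells. Array weights gave 16 for the difference from MigR1 cells and 51 for MigR1 cells. For the pooled comparison they gave 0, with 2316 at an unadjusted p under 0.05 (lowest limma adjusted p 0.17). Among the 9969 genes at or above the median level, 9156 pooled intervals lay within 0.5. The list medians of gamma-secretase substrates, p53 and apoptosis, cholesterol synthesis and myeloid markers, all within 0.03 of 0, turned sign under quantile scaling or centring. The Notch target median was -0.07 and -0.12 under these scalings. Causes were not tested.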
